A study of Mus musculus with 6 samples.

Results

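The mouse genome annotation holds 93 protein-coding genes on chromosomes 1 to 19, X and Y whose names begin with Kcn, of 21938 protein-coding genes in all. They were chosen by name alone, as Kcn followed by letters and a digit, and sorted into 5 groups by the letters: 40 voltage-gated (Kv) genes, 15 inward rectifier (Kir) genes, 14 tandem-pore (K2P) genes, 8 calcium- or sodium-activated genes and 16 auxiliary subunit genes. Their transcription starts were measured by cap analysis of gene expression (CAGE), which reads short tags at the ends where capped RNAs begin, in 3 libraries of mouse embryonic stem cells (mESCs) and 3 of mouse oligodendrocyte progenitor cells (mOPCs). The mESCs were the R08 line, grown without feeders in medium with serum and leukemia inhibitory factor. The mOPCs were oli-neu, an immortalized line derived from such progenitors, grown in proliferation medium with T3, L-thyroxine, bFGF and PDGF-BB. The labels give no other treatment and no engineered allele for either line, and RNA came from the nuclear fraction in every library. Each cell type stands for 1 line, and the labels do not say that its libraries came from separate cultures, so p-values measure only the spread between these libraries.

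A potassium channel is a pore through the cell membrane that lets potassium ions pass down their gradient, and in most cells it draws the membrane toward a negative resting voltage. Voltage-gated channels open when the membrane depolarizes, inward rectifiers pass current most easily into the cell and set the resting voltage, K2P channels, whose subunits hold pore loops in tandem, carry a steady leak, and calcium-activated channels couple the voltage to calcium inside the cell. Auxiliary subunits hold no pore and change the gating or the surface level of the pore subunits. Glia of the oligodendrocyte lineage are known for Kv currents in progenitors and for Kir currents, while embryonic stem cells have a different set of channels.

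The value of a gene was the number of tags within 500 bp of any of its annotated 5′ ends on its own strand, given per 1000000 tags of the library (tags per 1000000, TPM). A transcript gives 1 tag per captured 5′ end, so levels do not scale with transcript length. They do depend on the annotation, since the windows covered 1001 bp in Kcnh5 and 8836 bp in Kcnma1. The mESC libraries held between 16657021 and 37888141 tags and the mOPC libraries between 21925299 and 40928704. The windows of all protein-coding genes took up 810472 TPM in mESCs and 671557 in mOPCs (sums over windows, means of 3 libraries). All 12 pluripotency markers examined were lower in mOPCs and all 12 progenitor markers were higher, for example Olig2, a transcription factor of the oligodendrocyte lineage, with 3 tags in all mESC libraries and a mean of 425 TPM in mOPCs. Pdgfra rose least of the 12 progenitor markers, from 5.51 to 8.33 TPM (log2 fold change 0.62). Of the mature oligodendrocyte markers 6 of 7 tested were also higher in mOPCs (sum 24.2 ± 1.28 against 355 ± 15.7, SD, n = 3), and Mbp led them at 183 TPM. In mESCs, 5 of 6 neuronal markers and all 4 tested endoderm markers were higher than in mOPCs, with neuronal sums of 295 to 325 against 81.3 to 102, of which Stmn2 alone held 91.4% in mESCs, and endoderm sums of 30.1 to 36.9 against 0 to 0.0489. Of 5 tested astrocyte markers 3 were higher and 2 lower in mOPCs, with sums of 119 to 132 in mESCs against 283 to 306, and Aqp4 had 1 tag in mESCs and none in mOPCs. The part of these cell states in the results below was not tested. In bulk libraries fewer cells of a type and less RNA per cell cannot be told apart, and because every mESC library carries one library label and every mOPC library another, the label and the cell type cannot be told apart.

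Taken as sums, the potassium channel genes summed to 242, 249 and 245 TPM over the mESC libraries, against 1175, 1159 and 1215 TPM over those of mOPCs, a ratio of 4.82 between the means. The Kv group held most of this rise, with 72.2 ± 1.06 TPM in mESCs and 764 ± 25.2 in mOPCs (SD, n = 3). Kir genes summed to 17.7 ± 1.66 and 121 ± 5.48, and auxiliary genes to 39.1 ± 1.96 and 214 ± 3.55. In these 3 groups every mOPC library lay far above every mESC library. K2P genes went the other way, from 62.4 ± 6.08 to 49.4 ± 1.01, and so did the calcium- and sodium-activated genes, from 47.2, 55.8 and 59.0 to 33.8, 36.9 and 36.0. The libraries of the cell types did not overlap in these groups either. In the latter group the sodium-activated Kcnt2 alone had 20.6 TPM in mESCs and 0 in mOPCs. The 4 calcium-activated Kcnn genes stayed level, at 31.5 ± 3.78 and 30.9 ± 1.70. The K2P order turned to 52.6 against 62.9 when every tag from the first to the last annotated base of the genes was counted. Such a count leaves out tags upstream of a gene, among them the leading mESC start of Kcnk6. Kcnk2 held 65.3% of the K2P sum in mOPCs. The 5′ ends of its protein-coding transcripts alone gave 0.491 TPM there, against 32.3 TPM in all its windows.

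**Figure D1:**
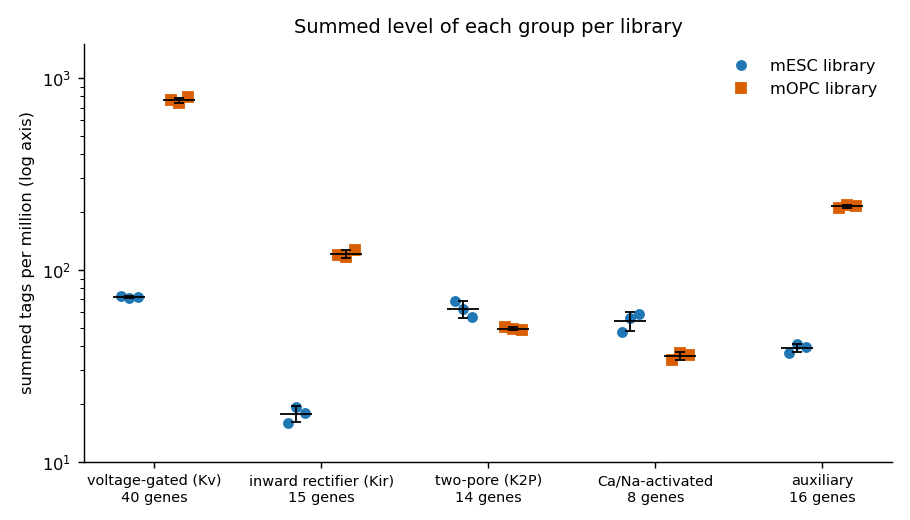
Summed level of each group of potassium channel genes in each library, in TPM of the library total on a log axis, with circles for mESC and squares for mOPC libraries, and a dash with bars for the mean ± SD of 3 libraries. The Kv sum was 72.2 in mESCs and 764 in mOPCs, while K2P and calcium- or sodium-activated sums were lower in mOPCs.

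A few genes carried these sums. In mOPCs 8 genes at 50 or more TPM (Kcna2, Kcnh5, Kcna6, Kcnq5, Kcnj10, Kcnip3, Kcna1 and Kcnmb4) held 75.3% of the total over all 93. In mESCs 4 genes at 20 or more (Kcnk5, Kcnk6, Kcnn2 and Kcnt2) held 36.8%. At a mean of 1 TPM or more, 32 of the 93 genes were detected in mESCs and 27 in mOPCs, 14 of them in both, so that 31.1% of the 45 genes detected in either cell type were shared. The same share was 78.7% over all protein-coding genes. The other 48 genes stayed below that level in both cell types, and 7 of these had no tag in any library.

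Counts were compared with the quasi-likelihood test of edgeR on all 14131 protein-coding genes with enough tags, of which 54 were potassium channel genes, and p-values were adjusted over the whole table. The 39 genes not tested reached at most 0.828 TPM in either cell type. Of the 54, 53 passed the threshold, 29 higher and 24 lower in mOPCs. Since 91.2% of all tested genes passed, 43.1% higher and 48.1% lower, the number of calls among the potassium channel genes is close to that background. Their sizes were larger: 43 of 54 (79.6%) changed by over 2 on the log2 scale, against 40.1% of all tested genes. The median size was 5.25 on the log2 scale (4.81 with genes at 0 in a cell type set to their bounds) against 1.49 over all. Large sizes were not particular to these genes. Of 15 tested pacemaker, sodium and calcium channel genes, 11 (73.3%) changed by over 2 as well, with a median size of 3.71. By group, 16 genes rose and 12 fell of 28 tested Kv genes, 2 rose and 3 fell of 5 Kir genes, 3 rose and 3 fell of 6 K2P genes, 2 rose and 5 fell of 8 calcium- and sodium-activated genes, and 6 rose and 1 fell of 7 auxiliary genes. The median signed change was 0.79 for Kv, −2.95 for Kir, −3.16 for K2P, −2.09 for calcium- and sodium-activated and 2.78 for auxiliary genes, against −0.12 for all tested genes. With the genes at 0 set to their bounds, the K2P median was −3.15 and the other medians were the same.

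**Figure D2:**
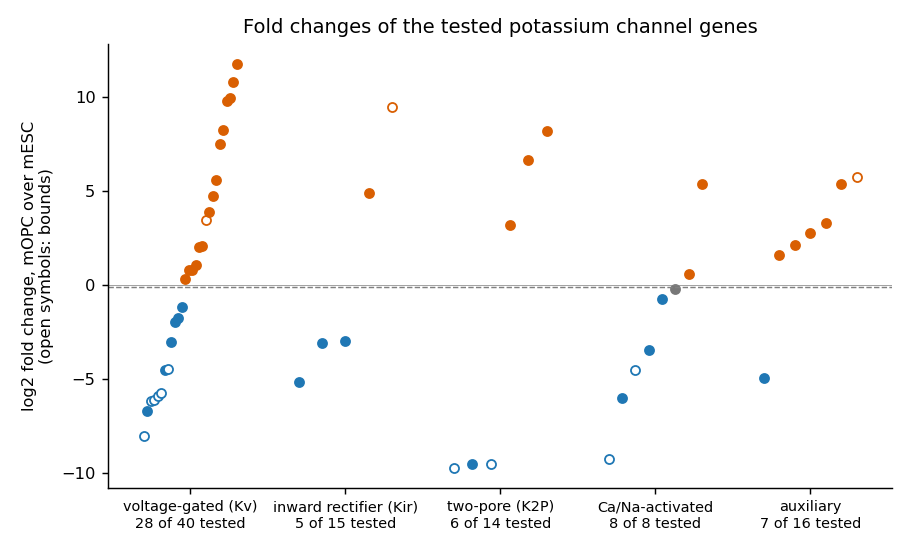
Log2 fold change of mOPCs over mESCs for the 54 tested genes by group, ordered within each group, with orange for calls higher in mOPCs, blue for lower, grey for no call, open symbols for bounds of genes with 0 tags in a cell type, and a dashed line at the median of all tested genes (−0.12). Most points lie far from the dashed line on either side, and 43 of the 54 fitted values exceed 2 in size.

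Genes without any tag in one cell type were found on both sides. The 10 called genes with 0 tags in all mOPC libraries were Kcna3, Kcng3, Kcnh1, Kcnh7, Kcnh8, Kcns3, Kcnk5, Kcnk6, Kcnt1 and Kcnt2, and the 3 with 0 tags in all mESC libraries were Kcna5, Kcnj9 and Kcnip1. For these a fold change is a bound, computed against 3 tags in the pooled libraries of the cell type at 0, and it covers counting error only. Elsewhere inside the 10 genes at 0 in mOPCs, between 0 and 41 mOPC tags were found per gene. Elsewhere inside the genes at 0 in mESCs there were 41 mESC tags in Kcnj9, 65 in Kcnip1 and none in Kcna5. The bounds thus hold for annotated 5′ ends and not for whole genes. With all tags inside the gene, Kcnj9 stood at 0.551 ± 0.118 and 25.2 ± 0.812 TPM and Kcnip1 at 0.922 ± 0.235 and 15.9 ± 0.997 TPM. Of the 10 tested genes nearest to each gene at 0 in mOPCs, between 2 and 9 were called higher in mOPCs.

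**Figure D3:**
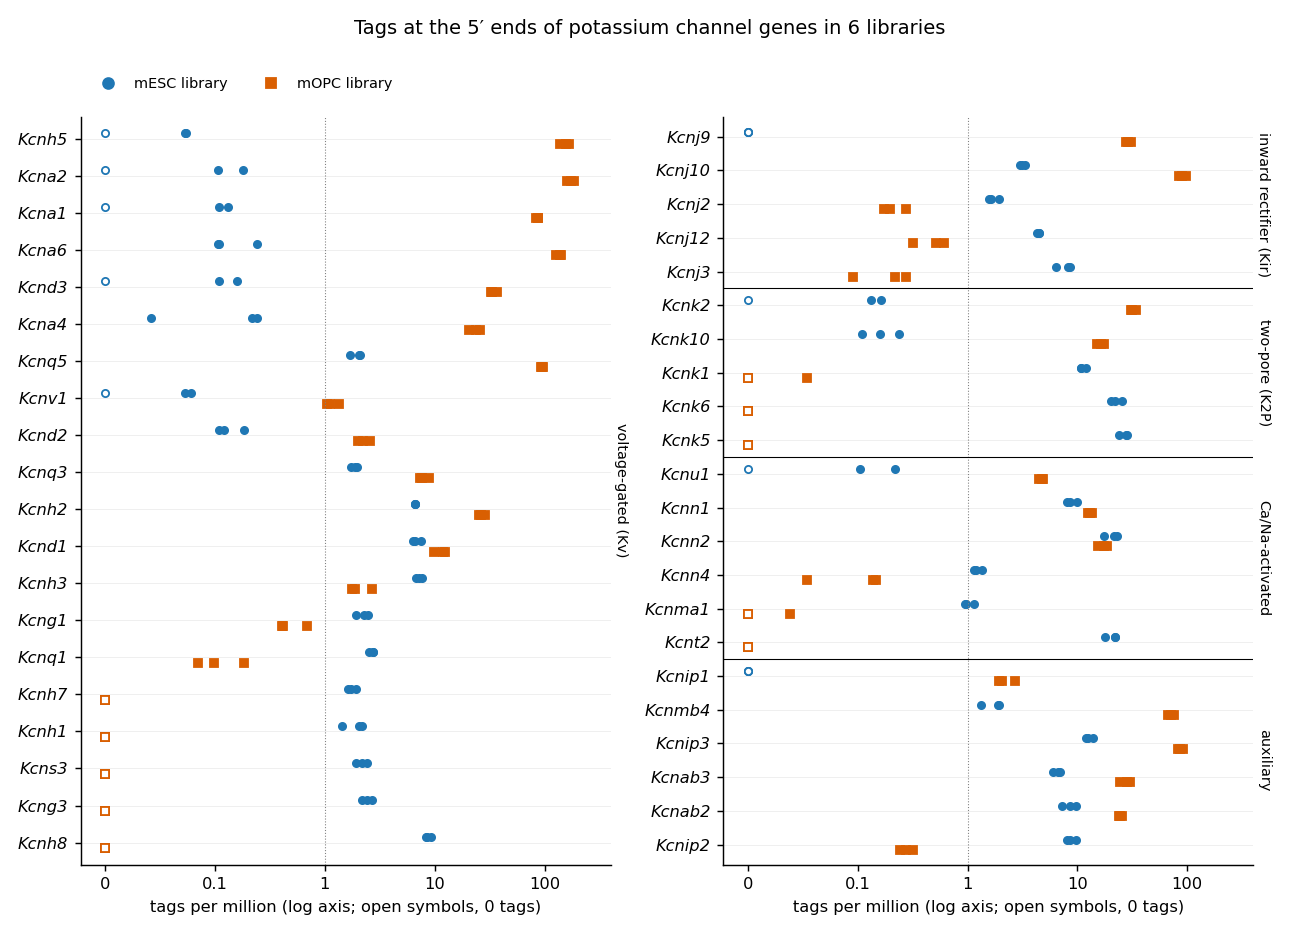
Level of 42 of the 45 genes with a mean of 1 TPM or more in either cell type, one row per gene, in TPM on a log axis, with circles for mESC and squares for mOPC libraries and open symbols at the left edge for 0 tags. Kv genes fill the left panel, and the libraries of the cell types lie apart for nearly every gene, while Kcnn2 overlaps.

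Short stretches around leading start positions are printed here to show which promoters the members with the largest rise and fall, the leading members of the Kir and auxiliary groups and some other strongly changed genes used. They are from the RefSeq promoter table (build GRCm38.p6), 5′ to 3′ on the strand of the gene, and the 2 capitals mark the position with the most tags and the base after it. Kcna6, Kcnh5, the internal start of Kcnh2 and Kcnt2 were added after their values were seen. Kcna6 is at chr6:126740628-126740708 (minus strand), Kcnh5 at chr12:75177331-75177411 (minus), Kcnh2 at chr5:24329573-24329653 (minus), Kcnj9 at chr1:172329282-172329362 (minus), Kcnj10 at chr1:172341147-172341227 (plus), Kcnk5 at chr14:20181763-20181843 (minus), Kcnt2 at chr1:140245657-140245737 (plus), the leading mESC start of Kcnip3 at chr2:127482450-127482525 (minus) and its leading mOPC start at chr2:127521351-127521431 (minus).
Kcna6: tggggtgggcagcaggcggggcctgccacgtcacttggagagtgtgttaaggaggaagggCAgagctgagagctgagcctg
Kcnh5: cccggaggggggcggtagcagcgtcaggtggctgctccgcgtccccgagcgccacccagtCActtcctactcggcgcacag
Kcnh2, internal start in mOPCs: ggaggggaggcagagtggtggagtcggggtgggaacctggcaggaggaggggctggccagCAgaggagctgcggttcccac
Kcnj9: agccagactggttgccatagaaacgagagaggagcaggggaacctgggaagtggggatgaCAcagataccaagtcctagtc
Kcnj10: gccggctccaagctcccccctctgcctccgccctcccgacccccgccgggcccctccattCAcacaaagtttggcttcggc
Kcnk5: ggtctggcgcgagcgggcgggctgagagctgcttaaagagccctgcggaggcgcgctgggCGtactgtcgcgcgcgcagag
Kcnt2: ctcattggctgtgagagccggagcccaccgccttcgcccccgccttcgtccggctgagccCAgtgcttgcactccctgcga
Kcnip3, mESC start: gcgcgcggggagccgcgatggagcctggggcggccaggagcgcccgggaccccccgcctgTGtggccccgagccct
Kcnip3, mOPC start: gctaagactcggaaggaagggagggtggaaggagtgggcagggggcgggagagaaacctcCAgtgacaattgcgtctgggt

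In each of these stretches the leading position holds C or T and the next base A or G, the pyrimidine and purine pair that RNA polymerase II prefers, with the purine as the first base of the RNA. Over 36 distinct leading positions of the genes with a RefSeq window, 31 had this pair at the leading position and the base after it, and 1 had it at the base before and the leading position. Positions are given as deposited, and they thus lie 1 base before the purine in most of these genes, for which the cause was not tested. The letters TATAAA, the core of a TATA box, were not found 20 to 40 bases upstream of any of these leading positions, as far as the windows reached. The windows held only 12 bases before the Kcna7 lead in mESCs and 2 before the Kcnd2 lead in mOPCs. Over whole RefSeq windows of 300 bases (250 before and 50 after a start), 68 of the 93 genes matched with 93 windows, and TATAAA on either strand was in 5 of them (5.38%) against 12.1% of the windows of all protein-coding genes. Of these 5, 4 were among the 17 Kir windows (23.5%), and the Kv, K2P and calcium- and sodium-activated windows had 0. The median GC content was 58.0% against 57.0%, and the observed over expected CpG ratio was 0.434 against 0.588. Windows of genes lower in mOPCs had a median GC content of 66.0% and a CpG ratio of 0.616 (18 windows), and those of higher genes 61.3% and 0.449 (34 windows).

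Among Kv genes, the Kcna (Shaker-type) subfamily changed most as a sum, from 1.47 ± 0.193 to 419 ± 13.5 TPM. Kcna2, an axonal and glial Shaker channel, had 0.106, 0.180 and 0 TPM in mESCs and 160.5, 174 and 185 in mOPCs, a log2 fold change of 10.77 ± 0.19 (SE, edgeR adjusted p = 2.6e-50). Its tags peaked 213 bp upstream of the nearest annotated 5′ end, and windows of 100 bp held 20.3 TPM in mOPCs. Kcna6, another Shaker channel, rose from between 0.106 and 0.240 to 142, 126 and 137 TPM (log2 fold change 9.92 ± 0.18). Kcna1, the episodic ataxia channel, rose from 0.132, 0 and 0.109 to 86.8, 84.1 and 86.8 (9.76 ± 0.20). These 3 genes were close to absent in mESCs and among the highest channel genes in mOPCs.

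Kcna4, which inactivates quickly, rose from 0.0264, 0.240 and 0.217 TPM to 20.3, 25.6 and 23.6 (log2 fold change 7.52 ± 0.25). Kcna5, a delayed rectifier studied in glial proliferation, had no tag in mESCs and 0.410, 0.485 and 0.464 TPM in mOPCs, at least 11.1-fold higher. Kcna3, a channel best known from T cells, went the other way, with 0.739, 0.600 and 0.814 in mESCs and 0 in mOPCs, at least 22.2-fold lower. Both thus stayed under 1 TPM even where they were higher. Kcna3, Kcna2 and Kcna10 are neighbours on chromosome 3, with 63.1 kb between the first pair and 68.0 kb between the second, and moved differently: Kcna10 had 0 mESC and 8 mOPC tags and was not tested. Kcna5, Kcna1 and Kcna6 are neighbours on chromosome 6, 105.0 and 61.9 kb apart, and all rose. Kcna7 stood at 0.317, 0.420 and 0.0543 against 0.639, 0.659 and 0.440, a call whose direction turned with windows of 1000 bp and with all tags inside the gene.

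The Kcnh (EAG, ERG and ELK) subfamily had members in both directions, with 2 higher and 5 lower of 7 tested. Kcnh5, an EAG channel, had 0.0528, 0 and 0.0543 TPM in mESCs (3 tags in all) and 165, 139 and 157 in mOPCs, a ratio of pooled tags of 3724 with a 95% exact interval of 1274 to 18061. A second concentration of 10920 mOPC tags lay in an exon around 556 bp downstream of the annotated 5′ end, just outside the window, and counting all tags inside the gene gave 272 ± 14.4 TPM in mOPCs. Kcnh2, the ERG channel of cardiac repolarization, rose from 6.62, 6.60 and 6.62 to 26.5, 25.0 and 28.4 (log2 fold change 2.03 ± 0.12). In contrast Kcnh8, an ELK channel, had 8.26, 9.31 and 8.52 TPM in mESCs, where it was the highest Kv gene, and none in mOPCs, at least 262-fold lower. Kcnh1, the other EAG channel, had 2.16, 1.44 and 2.06 in mESCs and 0 in mOPCs (at least 60.3-fold lower), and Kcnh7, an ERG channel, 1.61, 1.92 and 1.74 and 0 (at least 52.4-fold lower). With all tags inside the gene these 3 differences were smaller, at −2.55 ± 0.33 on the log2 scale for Kcnh8 (1.48 against 0.265 TPM), −3.05 ± 0.27 for Kcnh1 (2.59 against 0.309) and −1.41 ± 0.30 for Kcnh7 (87 tags against 41). For Kcnh8 and Kcnh7 that count leaves out the leading mESC start, which lay upstream of the gene, and for Kcnh1 it does not. The EAG pair Kcnh1 and Kcnh5 thus had opposite patterns. Kcnh3 fell from 7.19 ± 0.456 to 2.12 ± 0.508 and Kcnh4 from 0.696 ± 0.183 to 0.0932 ± 0.0379 TPM (SD, n = 3).

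The Kcnq subfamily, whose members carry the M current of neurons and the slow current of the heart, was divided in the same manner. Kcnq5 rose from 2.03, 2.10 and 1.68 to 92.0, 94.3 and 95.9 TPM (log2 fold change 5.61 ± 0.12), and its M current relative Kcnq3 from 1.98, 1.86 and 1.74 to 7.30, 8.95 and 7.62 (2.10 ± 0.16). Kcnq1, the cardiac and epithelial member, fell from 2.72, 2.52 and 2.71 to 0.182, 0.0694 and 0.0977 (−4.52 ± 0.33). All tags inside Kcnq1 gave instead 6.26 ± 0.254 in mESCs and 7.88 ± 0.522 in mOPCs, a log2 fold change of 0.31 ± 0.13 in the other direction (edgeR adjusted p = 0.020), so that the fall concerns its annotated starts and not the whole locus.

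All 3 Kcnd genes, the pore subunits of the A-type current, rose. Kcnd3 had 0.158, 0 and 0.109 TPM in mESCs and 32.7, 33.1 and 37.0 in mOPCs (log2 fold change 8.26 ± 0.23). Kcnd2 had 0.185, 0.120 and 0.109 and then 2.23, 2.57 and 2.00 (3.89 ± 0.34), but inside the gene and outside its window there were another 3156 mOPC tags, spread over 2554 positions, and all tags inside the gene came to 35.0 ± 2.07 TPM. Kcnd1 changed little, from 6.36, 6.60 and 7.49 to 9.76, 11.9 and 12.3 (0.78 ± 0.13), and this reversed with all tags inside the gene (−0.54). That count leaves out the leading start of Kcnd1, which lay upstream of the gene in both cell types.

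Of the 10 electrically silent Kv subunits, which form channels only together with other Kv subunits, 4 were tested, and 3 of these fell. Their sum was 8.05 ± 0.266 TPM in mESCs and 1.68 ± 0.325 in mOPCs. Kcng3 had 2.19, 2.40 and 2.66 TPM in mESCs and Kcns3 2.43, 1.92 and 2.17, and neither had a tag in mOPCs, at least 72.0-fold and 68.7-fold lower. Kcng1 fell from 2.21 ± 0.286 to 0.504 ± 0.156 (log2 fold change −1.99 ± 0.26). Kcnv1 alone rose, from 3 tags in mESCs to 1.05, 1.11 and 1.34 TPM in mOPCs, a ratio of 29.2 with a 95% exact interval of 9.73 to 144. The remaining 6 silent subunits were not tested, and 3 of them had no tag in any library.

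Among Kir genes, Kcnj10 (Kir4.1), the principal inward rectifier of glia, rose from 2.98, 3.36 and 3.15 to 90.1, 84.5 and 96.8 TPM (log2 fold change 4.88 ± 0.12, edgeR adjusted p = 2.0e-45). In both cell types its tags peaked at the same base, and it held 74.9% of the Kir sum in mOPCs. Its partner Kcnj16 (Kir5.1), with which it forms mixed channels, had 0.132, 0.0600 and 0.217 TPM in mESCs and 0.0456, 0.0694 and 0.0489 in mOPCs and was not tested. Kcnj9 (GIRK3), a G protein-gated subunit, had no tag in mESCs and 27.9, 30.6 and 28.8 TPM in mOPCs, at least 709-fold higher. Kcnj9 and Kcnj10 lie 11.9 kb apart on chromosome 1 on opposite strands. Other Kir genes ran the other way: Kcnj3 (GIRK1), the common G protein-gated subunit, was the highest Kir gene of mESCs at 6.41, 8.65 and 8.25 and fell to 0.0912, 0.277 and 0.220 (−5.15 ± 0.25). The classical inward rectifiers Kcnj12 (Kir2.2) and Kcnj2 (Kir2.1) fell from 4.40 ± 0.0833 to 0.483 ± 0.149 (−3.07 ± 0.23) and from 1.70 ± 0.193 to 0.214 ± 0.0527 (−2.95 ± 0.32). Of the G protein-gated genes, mESCs thus had Kcnj3 with little Kcnj6 (0.249 TPM) and mOPCs Kcnj9, and Kcnj5 had no tag in any library.

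No K2P gene reached 1 TPM in both cell types. Kcnk5 (TASK-2), an acid-sensitive leak channel, had 28.4, 27.6 and 23.8 TPM in mESCs, the highest channel gene there, and none in mOPCs, at least 827-fold lower. Kcnk6 (TWIK-2) had 25.5, 21.8 and 20.4 and likewise none, at least 714-fold lower. Kcnk1 (TWIK-1) had 11.9, 10.9 and 10.8 in mESCs and 1 tag in mOPCs, a ratio of 1045 in favour of mESCs with a 95% exact interval of 187 to 41342. The tested genes near Kcnk5 and Kcnk6 were lower in mOPCs too, with medians of −1.58 and −2.12 over the 10 nearest. Those near Kcnk1 had a median of −0.69, and chromosome 8, where it lies, one of −0.89; the part of position in these falls was not tested.

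In mOPCs nearly all of the K2P sum came from the TREK genes, mechanosensitive and lipid-sensitive leak channels. Kcnk2 (TREK-1) had 0.132, 0 and 0.163 TPM in mESCs and 34.4, 30.8 and 31.6 in mOPCs (log2 fold change 8.17 ± 0.22). Of its mOPC tags, 97.6% ± 0.119 (SD, n = 3) lay near the start of a non-coding transcript, Kcnk2-207, inside the gene, and the 5′ ends of its protein-coding transcripts alone gave 0.547, 0.485 and 0.440 TPM (3.42 ± 0.65). In mESCs 742 of 782 tags inside Kcnk2 and outside its windows fell in one stretch of 101 bp of an intron, and with all tags inside the gene the levels were 10.9 ± 0.819 and 38.8 ± 2.18 (1.82 ± 0.10). Kcnk10 (TREK-2) rose from 0.158, 0.240 and 0.109 to 15.2, 17.5 and 16.2 (6.62 ± 0.23). Kcnk3 (TASK-1) was called higher but stayed below 1 TPM, at 0.0869 ± 0.0819 and 0.659 ± 0.102, and had no call with all tags inside the gene (log2 fold change −0.33, edgeR adjusted p = 0.18). That count leaves out the leading mOPC start of Kcnk3, which lay upstream of the gene.

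Of the calcium- and sodium-activated genes, Kcnn2 (SK2), a small-conductance channel, was the highest in mOPCs, level with Kcnt2 in mESCs, and the only tested channel gene without a call. It had 17.5, 21.4 and 22.9 TPM in mESCs and 15.6, 18.7 and 17.4 in mOPCs, groups that overlap, with a log2 fold change of −0.22 ± 0.11 (edgeR adjusted p = 0.051). In 10 of 17 alternative settings it passed the threshold as lower, among them the 5′ ends of its protein-coding transcripts alone, where the levels were 2.57 ± 0.157 and 0.257 ± 0.0322 (−3.32 ± 0.28). Without mESC library 1 it was −0.38 and without mOPC library 2 it was −0.26, both called lower. Kcnn1 (SK1) rose from 7.97, 8.52 and 9.88 to 12.6, 13.0 and 13.5 (0.61 ± 0.12), and Kcnn3 (SK3), at 0.855 ± 0.203 and 0.483 ± 0.147 with overlapping libraries, was called lower (−0.74 ± 0.33, edgeR adjusted p = 0.029) but lost the call in 6 of 17 settings. Kcnn4 (IK), the intermediate-conductance channel, fell from 1.23 ± 0.106 to 0.106 ± 0.0620 (−3.44 ± 0.40).

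Kcnma1 (BK), the large-conductance channel, had 1.02 ± 0.103 TPM in mESCs and 1 tag in mOPCs, a ratio of 91.7 in favour of mESCs with a 95% exact interval of 16.0 to 3672. With all tags inside the gene Kcnma1 stood at 1.94 ± 0.152 and 0.939 ± 0.143 TPM (log2 fold change −1.01 ± 0.23). The sodium-activated Kcnt2 (Slick) had 20.6 ± 2.26 in mESCs and none in mOPCs, at least 608-fold lower, and its relative Kcnt1 (Slack) fell from 0.770 ± 0.105 to 0, at least 22.6-fold. In contrast Kcnu1 (Slo3), a channel known from sperm, rose from 0.106, 0 and 0.217 to 4.88, 4.75 and 4.45 (log2 fold change 5.38 ± 0.32) near its annotated 5′ ends. Another 343 mESC and 212 mOPC tags lay elsewhere inside Kcnu1, and with all tags inside the gene it stood at 4.78 ± 0.342 and 7.05 ± 0.438 TPM (0.53 ± 0.13).

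Among auxiliary subunits, Kcnip3 (calsenilin), a calcium sensor that binds Kcnd channels and also acts in the nucleus, was the highest in both cell types. It had 12.5, 13.9 and 12.0 TPM in mESCs and 86.7, 90.4 and 82.1 in mOPCs (log2 fold change 2.78 ± 0.10). Kcnip3 is on the study's list of progenitor markers, which the paper collected from the literature, so a rise could be foreseen. Kcnip1, which binds the same channels, had no tag in mESCs and 1.92, 2.70 and 2.05 in mOPCs, at least 54.1-fold higher, while Kcnip2 fell from 8.53, 9.79 and 8.03 to 0.319, 0.277 and 0.244 (−4.95 ± 0.22). Of the Kcnd partners outside the Kcn names, Dpp10 rose from 1 tag to 10.8 ± 0.641 TPM, and Dpp6 fell from 3.99 ± 0.309 to 0. The Kcnd genes, all higher in mOPCs near their annotated 5′ ends, came with Kcnip3, Kcnip1 and Dpp10 there. In mESCs Kcnd1 (6.82 TPM) came with Kcnip3 (12.8 TPM), Kcnip2 (8.78 TPM) and Dpp6.

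Kcnmb4, the neuronal β4 subunit of BK channels, rose from 1.90, 1.32 and 1.95 to 71.7, 67.2 and 76.3 TPM (log2 fold change 5.36 ± 0.13), in cells where the BK pore gene Kcnma1 had 1 tag near its annotated 5′ ends and 87 elsewhere inside the gene. The 3 Kcnab genes, whose products bind Kcna channels, all rose: Kcnab3 from 6.59 ± 0.492 to 27.6 ± 2.94 (2.11 ± 0.12), Kcnab2 from 7.26, 8.52 and 9.66 to 24.5, 25.4 and 23.7 (1.58 ± 0.11) and Kcnab1 from 0.0621 ± 0.0663 to 0.864 ± 0.178 (3.32 ± 0.49). Of the mOPC tags of Kcnab1, however, 97.1% ± 2.69 lay near the start of a non-coding transcript, and the 5′ ends of its protein-coding transcripts alone had 4 tags in mESCs and none in mOPCs. Some tags of Kcnab2 also lie in the windows of the gene Gm16334. The 5 Kcne genes, single-pass partners of Kcnq1 and Kcnh2, summed to 0.686 ± 0.0465 in mESCs and 0.0510 ± 0.0520 in mOPCs, and none was tested.

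Genes outside the Kcn names that bear on potassium were read from 3 lists. Of 10 partner subunits 5 were tested, with 2 higher (Dpp10 and Amigo1) and 3 lower, among these Abcc8, the sulfonylurea receptor, which fell from 4.34 ± 0.200 to 0.0617 ± 0.0340 TPM. Of 23 pacemaker, sodium and calcium channel genes 15 were tested, 10 higher and 5 lower, and their sum rose from 100.2 ± 3.35 to 429 ± 10.1. Scn8a, an axonal sodium channel, led it in mOPCs (18.1 ± 0.999 against 205 ± 3.11), and Cacna1a, a presynaptic calcium channel, led it in mESCs (48.6 ± 0.987 against 3.23 ± 0.580). Of 14 sodium pump and cation-chloride cotransporter genes 11 were tested, 7 higher and 4 lower. Slc12a7, a potassium-chloride cotransporter, had 177 ± 9.27 TPM in mESCs and none in mOPCs. All tested genes of these lists passed the threshold, as did 91.2% of all tested genes.

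Start positions could be compared in 28 genes with at least 10 tags in both cell types. The leading position was the same base in 12, 1 to 50 bp apart in 7, 51 to 500 bp apart in 4 and more than 500 bp apart in 5. The 5 were Kcnip3, Kcnh2, Kcnip2, Kcnj3 and Kcnq1. In Kcnj3 (19 mOPC tags), Kcnq1 (10) and Kcnip2 (25) the mOPC lead rests on few tags. The mESC leads of Kcnip3 (72 of 927 tags) and Kcnh2 (33 of 483) hold a small part of their tags. For Kcnip3 it led in 1 of 3 mESC libraries, with library leads up to 256 bp away. For Kcnh2 a position 29103 bp away was tied with it in a mESC library.

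Kcnip3 showed the largest of these shifts, 38906 bp. The upstream window, at the start of Kcnip3-201, held 23.6%, 29.0% and 32.6% of the gene's tags in mESCs and 99.9%, 99.9% and 99.8% in mOPCs. The downstream start of Kcnip3-202, which gives another protein-coding transcript, held the rest and had 9.58, 9.85 and 8.09 TPM in mESCs against 0.0456, 0.104 and 0.171 in mOPCs. The upstream start alone rose from between 2.96 and 4.02 to between 81.9 and 90.3 TPM, so both starts changed and went in opposite directions.

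In Kcnh2 the leads lay 21805 bp apart. The internal start of Kcnh2-202, which lacks the 5′ exons of the long form, held 7.57%, 9.09% and 6.56% of tags in mESCs and 53.4%, 51.9% and 53.4% in mOPCs. The start of the long transcript Kcnh2-201 held 60.6%, 75.5% and 59.0% in mESCs and 44.9%, 45.6% and 44.5% in mOPCs, and its own level rose from between 3.91 and 4.98 to between 11.4 and 12.6 TPM. Both starts were thus higher in mOPCs, the internal one by more. On the opposite strand of the Kcnh2 windows there were 180 tags in mESCs and 5011 in mOPCs.

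Other genes had a start that held tags in mESCs and none in mOPCs. The farthest upstream start of Kcnn1 (Kcnn1-206 and Kcnn1-208) held 35.4%, 39.4% and 32.4% of its tags in mESCs and none in mOPCs. An internal start of Kcnab2 (Kcnab2-202 and Kcnab2-205) held 32.4%, 30.3% and 24.7% in mESCs and none in mOPCs. In Kcnip2 the start that led in mESCs held 48.3%, 46.6% and 49.3% there and had no tag in mOPCs, where all windows of the gene had 25.

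**Figure D4:**
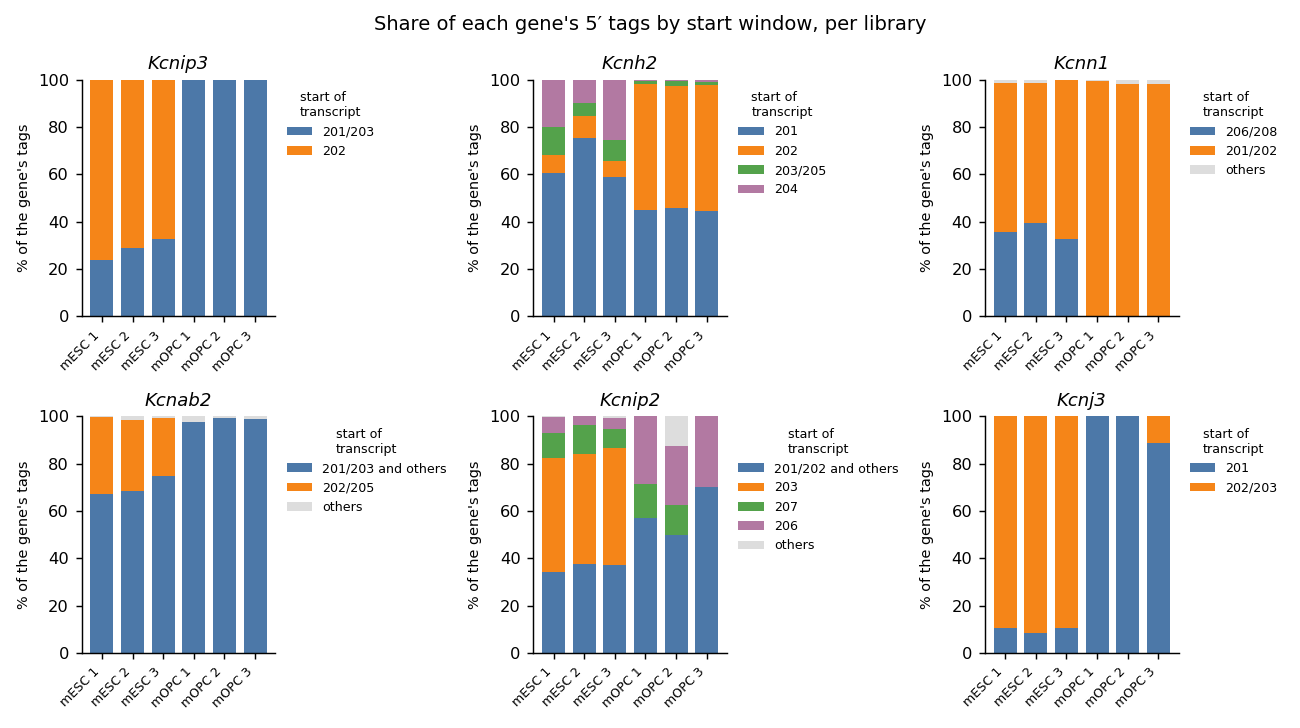
Share of each gene's tags that fell near each annotated start, in percent, one stacked bar per library, for Kcnip3, Kcnh2, Kcnn1, Kcnab2, Kcnip2 and Kcnj3, with the transcripts that begin there named by number. The mOPC bars of Kcnip3 are filled by its upstream start, and the internal start 202 takes 51.9% to 53.4% of each Kcnh2 bar in mOPCs.

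Tags inside the genes and outside the windows sometimes gathered where the annotation has no 5′ end. In mESCs 484 of 591 such tags of Kcnh6 and 289 of 305 of Kcnk4 lay in one stretch of 101 bp in an exon, as did 134 of 164 of Kcnmb2 in an intron. These 3 genes were not tested, with at most 42 tags near their annotated 5′ ends in a cell type. Opposite to the windows there were 21.1 tags per 100 window tags in mESCs and 13.4 in mOPCs, against 18.8 and 21.7 over all protein-coding genes.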

How the data were processed

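CAGE tags of nuclear RNA were analysed in 6 libraries, 3 of mESCs and 3 of mOPCs. The deposited values are raw tag counts per position and strand on mm10, which the authors made from reads cleaned of linkers and ribosomal sequence and aligned with unique placement. The submitters' processing notes name CASAVA 1.8 and BWA 0.5.9, while the study's methods name bowtie. Unique placement leaves out tags that fit near-identical gene copies equally well.

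Counts were summed within 500 bp of every 5′ end that GENCODE M21 (GRCm38) gives for a protein-coding gene, on its strand, with Python 3.11.15, and levels are tags per 1000000 of the library total (TPM). edgeR 4.0.16 (R 4.3.3) fitted cell type on all 6 libraries (TMM, filterByExpr, robust quasi-likelihood test), and p-values were adjusted by Benjamini-Hochberg over 14131 genes with a threshold of 0.05. Tested on simulated counts of 14131 genes with 200 changed by 2 on the log2 scale, it recovered 200, with 8 of 208 calls false. Few genes changed in the simulation, whereas 91.2% of the tested genes were called in the data. It therefore does not measure the share of false calls in these data. A standard error is the size of the log2 fold change divided by the square root of the quasi-likelihood F statistic. Where a cell type had 0 tags, bounds used 3 pooled tags, and at 1 to 3 tags an exact 95% interval of the ratio is given. These cover counting error only, and tags carry no molecular identifiers.

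Genes were named as the 10 largest called changes in each direction with libraries apart and at least 1 TPM, the highest gene of each group in each cell type, and 22 with known roles. Other members were described after their values were seen, and a few genes are not reported here. The members followed from their names, but they and the lists were chosen with earlier results of these data known. Alternatives changed normalization, tool (DESeq2 1.42.0), filter, window, tags counted, depth, replicate block and libraries.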

Additional observations from a re-analysis of the deposited data

How the results depend on the processing

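Of 53 called potassium channel genes, 46 kept their call in every one of 17 alternative fits that tested them, 37 of these being tested in all. The other 7 lost it at least once, among them Kcna7, Kcnd1, Kcnq1, Kcnk3 and Kcnn3. With all tags inside the gene counted, the log2 fold change of Kcnq1 turned to 0.31, and Kcna7, Kcnd1 and Kcnk3 also turned. This setting counts tags away from annotated 5′ ends and leaves out tags upstream of the gene. The leading mOPC starts of Kcna7, Kcnd1 and Kcnk3 lay upstream and were left out. Between 24 and 30 genes were called higher and between 20 and 41 lower, with 41 lower when no filter on low counts was used, which tested 86 of the 93 genes. DESeq2 called 26 higher and 24 lower. Leaving out 1 library in turn gave 26 to 28 higher and 24 to 27 lower. Without single libraries, the calls of Kcna7 (mESC 3) and Kcnn3 (mESC 2 or 3, mOPC 2 or 3) were among those lost. At 3 TPM in place of 1, 20 genes were detected in mESCs and 23 in mOPCs, the reverse of the order at 1 TPM (32 and 27).

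Summed levels, given in TPM for mESCs and then mOPCs where both moved by more than the spread between libraries, depended on what was counted. In windows of 100 bp they were 42.9 and 458 for Kv and 13.0 and 97.4 for Kir genes, 34.2 and 193 for auxiliary genes, 45.5 for K2P genes in mOPCs and 40.8 for calcium- and sodium-activated genes in mESCs. In windows of 1000 bp they were 76.9 and 927 for Kv genes and 23.1 for Kir genes in mESCs. With all tags inside the gene they were 73.6 and 922 for Kv, 19.4 and 99.6 for Kir, 52.6 and 62.9 for K2P and 43.2 and 228 for auxiliary genes, and 44.2 for calcium- and sodium-activated genes in mOPCs. Per 1000000 of the TMM effective library size, which is smaller than the total in every library, they were 97.3 and 1043 for Kv, 23.9 and 165 for Kir, 84.1 and 67.5 for K2P, 72.7 and 48.6 for calcium- and sodium-activated, and 52.7 and 292 for auxiliary genes.

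With the replicate number as a block, 28 genes were called higher and 25 lower, Kcnn2 being among the added calls. The deviations of same-numbered libraries correlated at 0.0107, 0.119 and 0.0242, and not every library correlated best with its own number. These values show no pairing by number, and whether libraries shared a preparation batch was not tested. Depth limits the 39 genes not tested, of which 24 had at most 10 tags in each cell type. That these were not tested does not show that they did not differ.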
